A study of Mus musculus with 8 samples.

Results

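The genes described here are 10 homeobox transcription factor genes that assign regional identity along the embryonic brain, and the data are the H3K27me3 regions around them in neural stem cells (NSCs). A region was taken as a member when it overlapped the GRCm38 body of Emx1, Emx2, Otx1, Otx2, En1, En2, Gbx1, Gbx2, Lmx1a or Lmx1b, widened by 5 kb on each side, which gave 15 of the 13585 regions. Each of the 10 genes had at least 1 region: Lmx1a had 6 and the other 9 genes had 1 each. The single Emx2 region lay only in the 5 kb flank, so no region touched the body of Emx2.

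The mark was profiled by ChIP-seq, in which fragments bound by an antibody against H3K27me3 are sequenced. The cells were female C57BL/6J NSCs, derived from dissociated cortices of E14.5 embryos per the study's methods and kept below 10 passages. All cells carried a GFP tag on the endogenous Smchd1 gene. WT cells had the genotype Smchd1GFP+/+, and MommeD43 cells were homozygous for a missense variant of SMCHD1 on the tagged allele (Smchd1GFPMommeD43/MommeD43), a noncanonical SMC protein known for its role in X inactivation and in the repression of clustered autosomal genes. Each genotype was represented by 3 independent cell lines, and 1 whole cell extract library per genotype served as input control. The deposited values hold a single column per genotype, the authors' pooled value over the 3 ChIP libraries, so a value below has no SD, a difference has no replicate check, and no p-value is given. The input libraries were not analysed here.

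H3K27me3 is deposited by Polycomb repressive complex 2, and it covers the promoters of developmental regulators that are silent in a given cell, often as broad domains centred on CpG islands. Emx1 and Emx2 are expressed in the dorsal telencephalon and pattern the cerebral cortex, and Otx1 is expressed in cortical progenitors and deep-layer neurons. Otx2 specifies forebrain and midbrain and sets the boundary with the hindbrain against Gbx2, and En1 and En2 act on both sides of that boundary. Lmx1a and Lmx1b direct the roof plate and the dopaminergic neurons of the ventral midbrain, and Gbx1 acts in the hindbrain and spinal cord. Below, Emx1, Emx2 and Otx1 are called cortical, Otx2, En1, En2, Lmx1a and Lmx1b midbrain, and Gbx1 and Gbx2 hindbrain genes.

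The values are log2 read counts per region, scaled by the authors to total library size. Depth was read back from the steps between low values, where a single read came to 3.27 normalized counts for WT libraries and 2.63 for MommeD43 libraries. The member regions held between 34.1 and 19769 reads per library in WT and between 70.8 and 35362 in MommeD43, as geometric means. These depths set the smallest counting error of a difference, and intervals below cover counting error only, since the reads carry no molecular identifiers and variation between cell lines is not in the columns. Differences are given as MommeD43 minus WT. Their median was 0.11 over all regions, and over the 11707 autosomal regions the median was 0.08. Setting the total of the regions equal lowers every difference by 0.24.

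H3K27me3 formed a broad domain over 8 of the 10 genes, with a region of at least 50 kb, whereas Emx2 and Otx1 had short regions. Of the 11707 autosomal regions 708 were that long, as were 556 of the 4422 that held a protein-coding gene start. Lengths include the authors' widening and joining of peaks. The longest member region was that of Lmx1b at chr2:33466251-33741400, which spanned 275.15 kb and reached 100.9 kb upstream of the gene start. The En2 region at chr5:28083651-28266850 spanned 183.2 kb, and the Gbx2 region at chr1:89906301-90073750 spanned 167.45 kb around a gene of 3224 bp. Regions at Otx2 (chr14:48616401-48712450), En1 (chr1:120578601-120653200), Emx1 (chr6:85140501-85214200) and Gbx1 (chr5:24496251-24558400) were 96.05, 74.6, 73.7 and 62.15 kb long. Each of these 7 regions covered the whole gene body with all of its exons. The Otx1 region at chr11:21989901-22004050 was 14.15 kb long. It also covered the whole gene, and ended 1153 bp upstream of its outermost start.

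Lmx1a was covered in pieces. Its first region, chr1:167631801-167710000, was 78.2 kb long, held the gene start and contained 530 of the 3396 exonic bp. The other 5 regions, between 6.05 and 16.7 kb, lay further along the gene. Of these, 4 were intronic, and the one at chr1:167779851-167791900 contained 233 exonic bp. Together the 6 regions covered 49.7% of the gene body. The Emx2 region, chr19:59449101-59456800, was 7.7 kb long and ended 1572 bp before the Emx2 start, within an intron of the antisense transcript Emx2os.

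**Figure D1:**
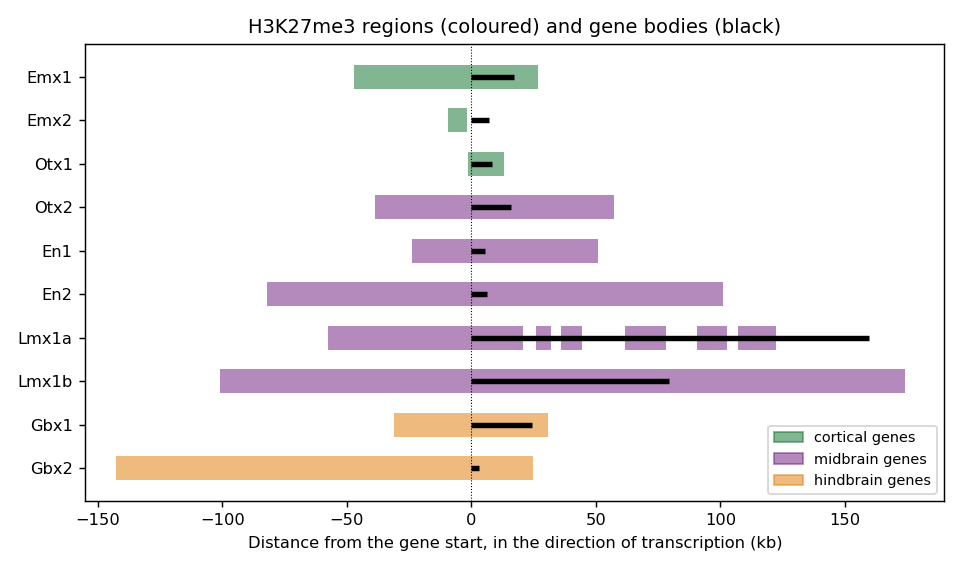
Position of each H3K27me3 region (coloured bars) relative to the start of its gene in kb, with gene bodies in black and positive distances in the direction of transcription. Regions of 62.15 to 275.15 kb enclose 7 genes, Lmx1a carries 6 separate regions, the Otx1 region is 14.15 kb long, and the Emx2 region stops 1572 bp short of the gene.

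CpG islands did not separate the covered from the uncovered genes. Islands were taken here as stretches of 500-bp windows with at least 55% GC and an observed to expected CpG ratio of at least 0.65. All 10 genes had such an island within 500 bp of the start. In 8 genes every island base within the gene body and the 5 kb flanks lay inside an H3K27me3 region. In Otx1 99.3% of 6692 island bp did, and in Emx2 0 of 3124 island bp did. The Otx1 region stood out for its composition, with islands over 46.9% of its length, against a median of 4.54% over the 15 member regions. The 250 bases before the outermost annotated start are shown for 3 genes at the extremes of the H3K27me3 values, read from the GRCm38.p6 reference with CpG dinucleotides in capitals. Emx2 is a gene without a broad domain, En1 the gene of highest density, and Gbx2 that with the largest difference between the genotypes.
Emx2, chr19:59458122-59458371, plus strand: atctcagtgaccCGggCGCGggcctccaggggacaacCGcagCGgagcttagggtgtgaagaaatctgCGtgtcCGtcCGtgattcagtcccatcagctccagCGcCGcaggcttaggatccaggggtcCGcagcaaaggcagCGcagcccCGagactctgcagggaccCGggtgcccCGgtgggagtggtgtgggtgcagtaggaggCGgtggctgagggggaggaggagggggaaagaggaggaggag
En1, chr1:120602168-120602417, plus strand: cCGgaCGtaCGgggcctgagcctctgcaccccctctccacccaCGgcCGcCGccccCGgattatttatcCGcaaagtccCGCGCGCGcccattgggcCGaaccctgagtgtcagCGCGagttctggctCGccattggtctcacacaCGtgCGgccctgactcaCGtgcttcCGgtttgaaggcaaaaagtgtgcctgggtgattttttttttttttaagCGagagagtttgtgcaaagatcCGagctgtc
Gbx2, chr1:89931180-89931429, minus strand: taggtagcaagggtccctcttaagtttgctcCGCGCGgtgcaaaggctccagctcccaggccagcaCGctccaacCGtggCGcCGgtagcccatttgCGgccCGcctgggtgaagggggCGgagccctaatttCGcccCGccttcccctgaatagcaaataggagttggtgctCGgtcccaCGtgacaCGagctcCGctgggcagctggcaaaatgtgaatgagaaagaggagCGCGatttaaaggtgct

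Of these windows, that of Emx2 held 16 CpGs, that of Gbx2 18 and that of En1 22. Over all 10 genes the count ran from 8 at Emx1 and 9 at Otx2, both covered by broad domains, to 39 at Lmx1b. Over the windows of 21931 protein-coding genes the median was 8, and 29.4% of them held at least as many CpGs as Emx2 and 16.0% at least as many as En1. The Emx2 window overlaps an exon of Emx2os.

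Levels were compared between genes per kilobase of region, and in WT they ran from 18.4 to 385 normalized counts per kb. The median of autosomal regions was 36.01 in WT and 37.0 in MommeD43. En1 had the highest density, 385 in WT and 491 in MommeD43, and was number 12 of all 13585 regions in WT. Lmx1b followed with 235 in WT and 339 in MommeD43, and Otx2 with 231 and 306. En2 had 213 in WT and 315 in MommeD43. These 4 midbrain regions had between 5.93 and 10.7 times the median density of autosomal regions in WT.

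Emx1 differed from the other cortical genes. Its density was 184 normalized counts per kb in WT and 206 in MommeD43, at percentile 98.9 of all regions in WT. Emx2, by contrast, had 24.1 in WT and 36.5 in MommeD43, from a region beside the gene, and Otx1 had 30.6 in WT and 20.5 in MommeD43. Both were below the autosomal median of WT. In WT the hindbrain genes lay between these extremes, with 140 at Gbx1 and 117 at Gbx2. In MommeD43 Gbx1 had 163 and Gbx2 had 238, which was above Emx1. Within Lmx1a the first region had 107 in WT and 172 in MommeD43, and the 5 inner regions had at most 48.1 in WT and 56.4 in MommeD43. Density followed length, with a Spearman correlation of 0.745 over autosomal regions and 0.868 over the 15 member regions, which share libraries and are not replicates. Among autosomal regions of at least 50 kb, the WT density percentile was 84.0 for Emx1, 75.1 for Gbx1, 68.0 for Gbx2 and 62.1 for the first Lmx1a region. Those of En1, Lmx1b, Otx2 and En2 were 99.0, 91.2, 90.7 and 88.3.

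**Figure D2:**
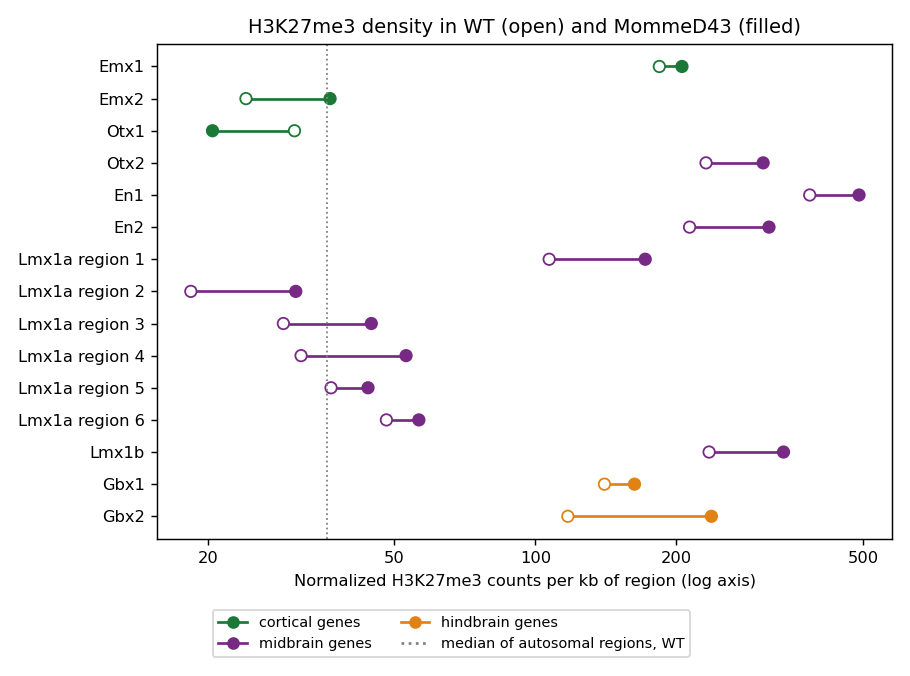
Normalized H3K27me3 counts per kb of region (log axis) in WT (open circles) and MommeD43 (filled circles), 1 row per member region, with the WT median of autosomal regions as a dotted line. The Emx1, Otx2, En1, En2, Lmx1b, Gbx1 and Gbx2 regions and the first Lmx1a region lie between 107 and 385 in WT, and the Emx2 and Otx1 regions at 24.1 and 30.6.

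To ask whether the MommeD43 variant went with a different level of H3K27me3 at these genes, the difference between the pooled columns was examined. The study itself regards ChIP-seq as poorly suited to comparing amounts of a histone mark, and reads no change of peak position from these data. By immunofluorescence it reported a modest decrease of H3K27me3 in MommeD43 cells, on the inactive X and, without showing data, over the whole nucleus. As deposited, 14 of the 15 member regions were higher in MommeD43 and 1, at Otx1, was lower, where 60.2% of all regions and 57.7% of autosomal regions were higher. All 15 regions are autosomal. All 15 differences exceeded their counting interval, as did 40.9% of all regions in the higher and 23.4% in the lower direction. The median difference of the member regions was 0.53. Of these 15 regions, 8 were higher by at least 0.5 on the log2 scale, against 18.3% of all and 13.4% of autosomal regions, and 6 of the 8 belonged to midbrain genes. The 8 came from 5 of the 10 genes, since 4 of them lie in Lmx1a. With the column totals set equal 3 regions from 2 genes passed 0.5, against 5.04% of autosomal regions on that scale. With the GC trend removed 5 passed, against 8.52%, and with GC and density trends removed 4, against 8.28%. Otx1 was lower by more than 0.5, as were 11.2% of all and 11.5% of autosomal regions. A difference of at least 1 was found in 1 member region that was higher, at Gbx2, and in 0 that were lower, against 6.09% and 3.03% of all and 2.28% and 2.93% of autosomal regions. Gbx2 was below 1 under both scalings and each trend removal tried. Counts by region are weighted towards Lmx1a, and with the regions of a gene summed the median over the 10 genes was 0.47.

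Broad regions as a class were higher in MommeD43 more often than all regions. The 8 member regions of at least 50 kb were all higher in MommeD43, with a median difference of 0.47, and 4 of them passed 0.5. Of the 708 autosomal regions of that length, 77% were higher, 20.6% passed 0.5 and the median was 0.26. With equal totals 6 of the 8 were higher, against 51.4% of the broad autosomal regions, and with the GC trend removed 6 were, against 59.6%. With GC and density trends removed 4 were higher and 4 lower, and 41.7% of the broad autosomal regions were higher. Without replicate libraries these shares describe the pooled columns and test nothing.

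Gbx2, the hindbrain partner of Otx2, had the largest difference of the 15. Its value was 14.26 in WT and 15.28 in MommeD43, a difference of 1.02 with a smallest counting error of 0.01, or 2.02-fold. It lay at percentile 98.0 among autosomal regions of at least 50 kb. The Gbx2 region also covers parts of Asb18, with its start, and of Iqca, so the value is not that of Gbx2 alone. Its paralogue Gbx1 differed by 0.21, from 13.09 in WT to 13.30 in MommeD43, in a region that also holds the starts of Asb10 and 4931409K22Rik. With the column totals set equal, Gbx2 had 0.78 and Gbx1 -0.029. With the abundance trend removed Gbx2 had 0.71, and with GC and density trends removed 0.65.

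As deposited, midbrain genes were higher in MommeD43 in all 10 of their regions, with a median of 0.55, where 57.7% of autosomal regions and 77% of those of at least 50 kb were higher. Lmx1a alone holds 6 of the 10. En2, which patterns the cerebellum and midbrain, went from 15.25 in WT to 15.82 in MommeD43, a difference of 0.56, and its region also held the start of Cnpy1. Its paralogue En1 went from 14.81 to 15.16, a difference of 0.35. Otx2 went from 14.44 in WT to 14.84 in MommeD43, a difference of 0.40, at percentile 91.4 of the autosomal regions whose GC content was within 1 percentage point and at percentile 69.0 of those of at least 50 kb. It had 0.16 with equal totals and 0.096 with the abundance trend removed. Lmx1b, required for the isthmus and for dopaminergic and serotonergic neurons, went from 15.98 to 16.51, a difference of 0.53. The Lmx1b region also overlaps Zbtb43, with its start, and Mvb12b, so the value is not that of Lmx1b alone. Counting errors of these regions were at most 0.013. The size of these differences depended on the scaling and on the trends removed. The midbrain median was 0.30 with the column totals set equal, 0.24 after removal of the trend with abundance and 0.25 after removal of those with GC and density together. With equal totals the sixth Lmx1a region had -0.011. With GC and density trends removed En1 had -0.058 and Lmx1b -0.0014, and with the abundance trend removed they had 0.041 and 0.22.

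The difference varied along Lmx1a. The region over the gene start, which also overlaps Rxrg, went from 13.03 in WT to 13.71 in MommeD43. This was a difference of 0.68 with a smallest counting error of 0.020. The next 3 regions, all intronic, differed by 0.74, 0.62 and 0.74. The last 2 regions, which end 103 and 122 kb downstream of the gene start, differed by 0.26 and 0.23. The interval of the fifth region, 0.08 to 0.44, did not overlap those of the first and the fourth, but overlapped those of the second, 0.40 to 1.08, and the third, 0.39 to 0.85. That of the sixth region, 0.09 to 0.37, overlapped none of the first 4. With equal totals the fifth region had 0.021. The second region was the most thinly covered, with 34.1 reads per library in WT and 70.8 in MommeD43. With the reads of all 6 regions summed, Lmx1a differed by 0.64.

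Cortical genes did not move together. Emx1 went from 13.73 in WT to 13.89 in MommeD43, a difference of 0.16 with an interval of 0.13 to 0.19. It became -0.081 with the column totals set equal. The Emx1 region also overlaps Sfxn5. The region beside Emx2 went from 7.54 to 8.13, a difference of 0.60, and its 56.8 reads per library in WT left an interval of 0.33 to 0.86. The Otx1 region went from 8.76 in WT to 8.18 in MommeD43, a difference of -0.58 with an interval of -0.79 to -0.37. The Otx1 region held 133 reads per library in WT and 110 in MommeD43. Otx1 kept its direction under each scaling and each trend removal tried, with values from -0.66 to -1.001. The median of the 3 cortical regions was 0.16, and it turned to -0.21 when the Emx2 region, which lies outside the gene body, was left out.

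**Figure D3:**
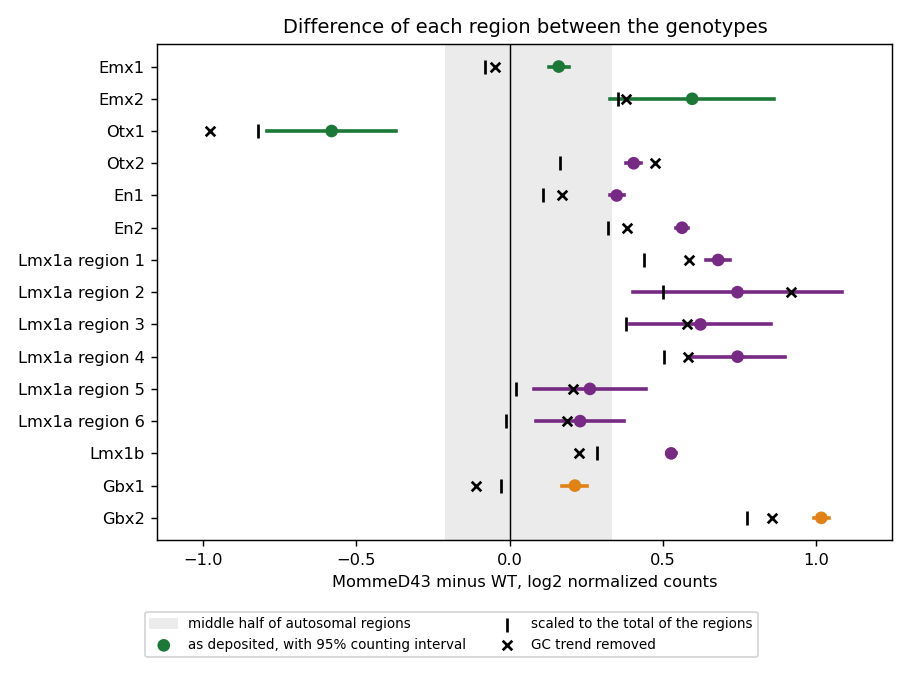
Difference of each member region, MommeD43 minus WT in log2 normalized counts, as deposited (circles, with the 95% counting interval as a line), with the column totals set equal (ticks) and with the GC trend removed (crosses). The grey band is the interquartile range of autosomal regions, and Gbx2 at 1.02 and Otx1 at -0.58 are the extremes, while Emx1, Gbx1 and the sixth Lmx1a region change sign with equal totals and Emx1 and Gbx1 also with the GC trend removed.

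Base composition moved with the difference over the 11707 autosomal regions, with a Spearman correlation of 0.583 between difference and GC content. Over the 15 member regions the correlation had the other sign, -0.396. Of these points 6 are pieces of Lmx1a, and Otx1 has both the highest GC content and the lowest difference. The value only describes these few regions. Member regions had GC contents of 42.7% to 52.8%. Each was therefore also set beside the autosomal regions whose GC content was within 1 percentage point. There, Gbx2 stood at percentile 97.6 of 2123 regions, the first 4 Lmx1a regions between percentiles 94.5 and 98.1, En2 at 90.7 and Lmx1b at 81.3. The fifth and sixth Lmx1a regions stood at 74.5 and 76.5, En1 at 74.2, Emx1 at 39.5 and Gbx1 at 34.3. Otx1, the region of highest GC content, was at percentile 0.157 of 636 regions, whose median difference was 0.39.

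With the GC trend removed, 12 of the 15 member regions were higher in MommeD43 and the median was 0.38, where 49.9% of autosomal regions were higher. All 10 midbrain regions were then above 0, between 0.17 and 0.92, but with the density trend removed as well En1 and Lmx1b were below 0, at -0.058 and -0.0014. With the GC trend alone removed, Emx1 had -0.049, Gbx1 -0.11, Gbx2 0.86 and Otx1 -0.98. The regions most like Otx1 in islands were few: 16 other autosomal regions had at least its island share, their median difference was 0.61, and 1 of them was lower than Otx1. Whether GC content has a part in any of these differences was not tested.

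**Figure D4:**
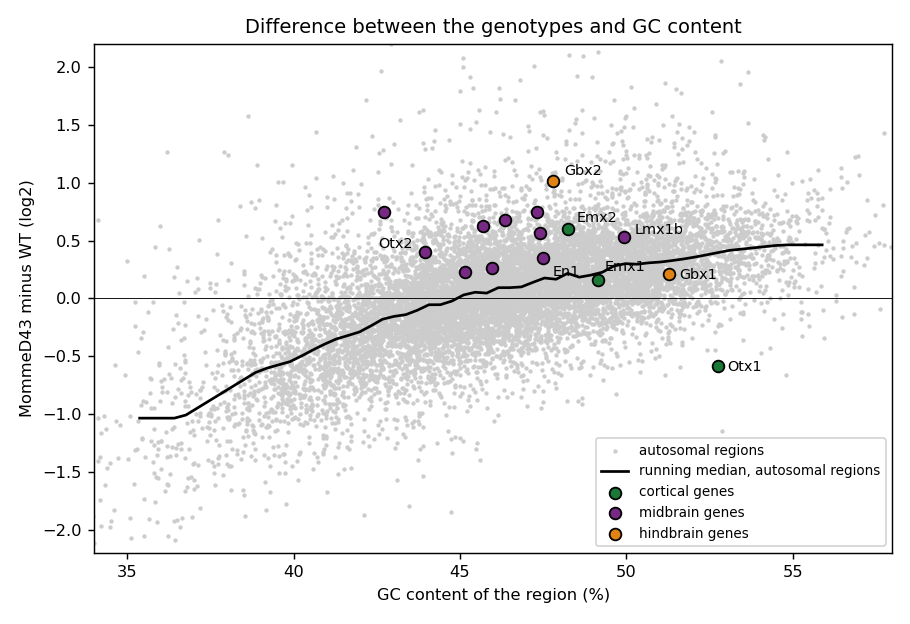
Difference of each region, MommeD43 minus WT on the log2 scale, against GC content in percent, for autosomal regions (grey), their running median (line) and the member regions (coloured). Midbrain regions lie above the line, Gbx2 lies 0.86 above it, Otx1 has -0.98 relative to it, and Emx1 and Gbx1 lie just below it (points beyond the axes are not drawn).

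Paralogues were then set beside each other. Otx2 had 7.55 times the density of Otx1 in WT and 14.96 times in MommeD43, and their differences had opposite signs. Emx1 had 7.62 times the density of the region beside Emx2 in WT and 5.63 times in MommeD43. Lmx1b had 3.08 times the density of Lmx1a in WT, En1 1.80 times that of En2, and Gbx1 1.197 times that of Gbx2. In MommeD43 the order of the last pair was the other way, with Gbx2 at 1.46 times Gbx1.

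Neighbouring regions were compared with the genes they flank. Within 200 kb of the genes lay 44 further regions, with a median difference of 0.13, and 24 of them were higher in MommeD43. That share, below the 57.7% of autosomal regions, does not set the neighbours apart. Their density in WT was at most 71.8 normalized counts per kb. The nearest neighbours of En1 and En2, 76.2 and 99.3 kb from the gene, differed by -0.36 and -0.087, whereas both genes were higher in MommeD43. At the other genes with a neighbour the nearest region was higher in MommeD43. Nearest to Gbx2, at 28.7 kb, a region within Agap1 differed by 0.71, and nearest to Lmx1b, at 107 kb, a region within Mvb12b differed by 0.67. The nearest neighbours of Otx2, Lmx1a and Emx2, at 46.0, 40.8 and 52.9 kb, differed by 0.10, 0.22 and 0.24. Otx1 had 0 regions within 200 kb. Regions that just missed the 5 kb flank were found 9.91 kb from Gbx1 and 12.2 kb from Emx1, and differed by 0.58 and 0.46.

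Other regional patterning genes were examined in 4 lists by the same 5 kb rule. Their counts are to be read against the 60.2% of all regions and the 77% of autosomal regions of at least 50 kb that were higher in MommeD43. Of 11 genes of the isthmic organizer, the signalling centre at the midbrain-hindbrain boundary, 9 had a region, 7 were higher and 2 lower in MommeD43, and the median over genes was 0.58. Wnt1, which maintains En1 in the midbrain, differed by 0.67 and Fgf8, the organizer signal, by 0.63. Pax8 had the largest difference, 0.89, and Sp8 the smallest, -0.74, with 351 normalized counts per kb in WT and 210 in MommeD43. Spry1 and Spry2 had no region.

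Of 10 genes of dopaminergic midbrain neurons, 9 had a region, 8 were higher and 1 lower, with a median of 0.36. Msx1, which acts with Lmx1a in midbrain progenitors, had the largest difference, 0.90, and the vesicular monoamine transporter gene Slc18a2 the smallest, -0.13. Of 10 hindbrain genes 9 had a region and all 9 were higher, with a median of 0.52 and the largest difference, 0.96, at Phox2a. Of 12 cortical progenitor genes 11 had a region, 8 were higher and 3 lower, and the median was 0.25. Pax6 had the largest difference, 1.18, from 33.4 to 75.6 normalized counts per kb, and Lhx2 the smallest, -0.24. By region, 6 of 10, 5 of 11, 5 of 9 and 2 of 12 passed 0.5 in the isthmic, dopaminergic, hindbrain and cortical lists, and 1, 0, 0 and 0 were lower by as much, where 18.3% of all regions were higher and 11.2% lower by that amount. The cortical count is near that background. With the GC trend removed, the median over regions went from 0.55 to 0.28 in the isthmic list, from 0.36 to 0.32 in the dopaminergic list, from 0.52 to 0.33 in the hindbrain list and from 0.23 to 0.12 in the cortical list.

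**Figure D5:**
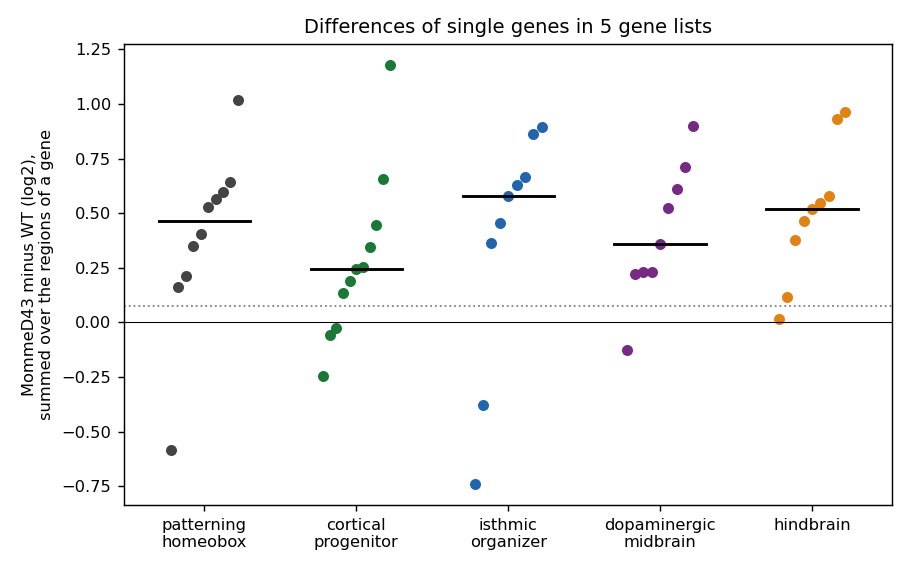
Difference of each gene, MommeD43 minus WT on the log2 scale, with counts summed over its regions, for the 10 patterning homeobox genes and 4 lists of other patterning genes, where the thick line is the median of a list and the dotted line the median of autosomal regions. Medians are 0.47, 0.25, 0.58, 0.36 and 0.52 from left to right, and the lowest points are Otx1 at -0.58 and Sp8 at -0.74.

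The labelled cell type was set beside genes that define it, although a histone mark gives no RNA level. Of 10 neural stem cell genes 4 had no H3K27me3 region, Sox2, Fabp7 and Vim among them, and 5 of the other 6 had a region over the start, among them Nes, Pax6 and Sox1. Their densities in WT were between 23.6 and 72.0 normalized counts per kb. Sox1, Nes, Hes1 and Msi1 were above the autosomal median of 36.01 and above the Emx2 and Otx1 regions, and all 6 were below the broad member regions.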

How the data were processed

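Per the labels and the study's methods, the authors trimmed reads with Trim Galore 0.4.4, aligned them to GRCm38.p6 with Bowtie2 2.3.4.1, extended them by 150 bp in SeqMonk, called peaks on merged replicates, widened these by 2.5 kb and joined those closer than 1 kb. The deposited values are log2 read counts per region scaled to library size, pooled to 1 column per genotype. They are not divided by length, and input is not subtracted. The labels name micrococcal nuclease and the methods shearing. Region ends come from the end column: in 8582 regions the name gives a shorter end.

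Whole-number products of 3 counts were recovered within 0.1 in 99.9% of 1139 low WT values and 99.6% of 684 low MommeD43 values. The 95% counting interval assumes Poisson counts spread evenly over 3 libraries. Trends were running medians over 40 bins of autosomal regions. Scripts were tested on simulated data. Genes came from GENCODE mouse release 21. Named genes are all members, the largest and smallest difference of each list and the nearest neighbours; Wnt1, Fgf8, the marker genes and list genes without a region were named after their values were seen. Some items that these rules cover are not reported here. Members and lists were chosen with earlier results of these data known. Computation used numpy 2.4.6 and pandas 2.3.3 under Python 3.11.15, with scipy 1.17.1, and figures used matplotlib 3.10.9.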

Additional observations from a re-analysis of the deposited data

How the results depend on the processing

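No paired analysis was possible because each genotype has a single pooled column, and for the same reason no replicate was left out in turn. Values were compared with the counting interval. The median of all member regions, 0.53, was 0.29 with scaling to the total, 0.45 with scaling to the autosomal median, 0.38 with the GC trend, 0.22 with the abundance trend and 0.25 with GC and density trends removed, 0.47 for gene bodies without flank, 0.405 for regions holding the start and 0.47 over genes. In the same order of scalings and trends, the midbrain median of 0.55 was 0.30, 0.43, 0.24 and 0.25, leaving out the autosomal scaling, and the hindbrain median of 0.62 was 0.37, 0.54, 0.37, 0.31 and 0.18. With a flank of 10 kb the hindbrain median was 0.58. The cortical median of 0.16 changed sign, to -0.081 with scaling to the total, -0.049 and -0.15 with the GC and abundance trends removed, -0.26 with GC and density trends removed, and -0.21 without flank or with the gene start required. The midbrain median exceeded the cortical one by 0.38, and by 0.28 with Otx2 among the cortical genes. For this excess the trend removals were chosen after seeing the data, and gave 0.48 for GC and 0.52 for GC and density. With a fold of 0.5 in place of 1, the count of higher regions went from 1 to 8 and of lower ones from 0 to 1. The shares of autosomal regions went from 2.28% to 13.4% and from 2.93% to 11.5%. Counts under the scalings and trends were also chosen after seeing the data. The 1 region higher by 1 became 0 under both scalings and each trend removal, and the 0 lower became 1 with GC and density trends removed. Of autosomal regions, 1.18% to 2.15% were higher by 1 on these scales, and 0.7% were lower by 1 with GC and density trends removed. The count higher by 0.5, 8 as deposited, was 3 with equal totals, 6 with scaling to the autosomal median, 5 with the GC or the abundance trend removed and 4 with both GC and density removed. The share of autosomal regions was 13.4% as deposited, 5.04% with equal totals and 9.52% with scaling to the autosomal median. It was 8.52% with the GC trend, 9.76% with the abundance trend and 8.28% with GC and density trends removed.

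Single regions gave 90 values under 6 alternatives: 42 differed from the deposited value by less than its counting interval, 37 differed by more with the sign kept, and 11 changed sign. With scaling to the total Emx1 went to -0.081, Gbx1 to -0.029 and the sixth Lmx1a region to -0.011. With the GC trend removed Emx1 went to -0.049 and Gbx1 to -0.11, and with the abundance trend removed to -0.15 and -0.088. With GC and density trends removed Emx1 went to -0.26, En1 to -0.058, Lmx1b to -0.0014 and Gbx1 to -0.295. A common scaling shifts all regions alike by construction. For the trends the cause was not tested. Otx1, Otx2, En2, Gbx2, the first 5 Lmx1a regions and the region beside Emx2 kept their direction under all 6. Depth limits the inner Lmx1a regions and those at Emx2 and Otx1, with counting errors of 0.073 to 0.17.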

Other observations

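Genes that mark other cell types, in regions found by the same rule, were also looked at. Of 3 neuronal genes 2 had regions: Rbfox3, which encodes the nuclear antigen NeuN, had 9 and differed by 0.59 with its counts summed, from 105 to 158 normalized counts per kb, and Tubb3 differed by 0.27. Syt1 had none. The astrocyte gene Gfap differed by 0.34, and of 2 microglial genes Aif1 differed by 0.46 and Cx3cr1 by 0.21. Of 3 oligodendrocyte genes Mbp differed by 0.39 and Olig2 had no region. The endothelial gene Cldn5 had a region of 14.75 kb with 47.2 normalized counts per kb in WT and 112 in MommeD43, a difference of 1.24, and Pecam1 had none. Aqp4 had none either. The marker genes of neural stem cells had a median of 0.17 over the 6 genes with a region, of which 5 were higher in MommeD43 and Msi1, at -0.084, was lower. Of all regions 60.2% were higher in MommeD43, as were 57.7% of autosomal regions, whose median difference was 0.08.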
